A study of Mus musculus with 12 samples.

Results

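The comparison described here asks whether the M354 form of Foxp3 changes gene expression in the same way in regulatory T cells (Tregs) that carry it in the genome and in conventional T cells that receive it from a retrovirus. It uses 8 of the 12 arrays of the study, 2 in each of 4 groups. M354 Tregs came from Foxp3(M354/M354) mice and WT Tregs from Foxp3(WT/WT) mice, and both were spleen cells double sorted as live CD4+ cells with high CD25. M354-transduced and WT-transduced cells were conventional CD4+ T cells of WT mice that received M354 or WT Foxp3 by retroviral transduction in vitro and were sorted for high Thy1.1. All mice are labelled as male C57Bl/6 animals of 6 weeks. The study's design text calls the mice treated and names no treatment. The other 4 arrays hold M176 Foxp3, another mutant form, in both systems; they entered the estimate of the spread and are quoted as levels where useful. No label spells out the residues that M354 and M176 change. Whether a group's paired arrays are separate mice or cultures is also unlabelled, so p-values here reflect the spread of these samples alone, possibly a technical one.

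Foxp3 is the transcription factor that defines the Treg lineage. Inherited mutations of it cause fatal autoimmunity in mice and humans. In a conventional T cell, forced expression of Foxp3 installs part of the Treg programme on top of a culture in which the cell has been activated and is growing. Such cells use much glucose, and their glycolytic genes and those of the hypoxia response are driven in part by hypoxia-inducible factor (HIF), which binds the core sequences ACGTG and GCGTG with its partner Arnt. The transduced cells here also keep their own WT Foxp3 gene, and the groups include no cells transduced without Foxp3.

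The quantity reported is the interaction, the log2 ratio of M354 over WT in Tregs minus that in transduced cells. A positive value means that M354 moved the gene more upward, or less downward, in Tregs. Of 8918 genes tested, 96 (1.08%) were called in the interaction at a Benjamini-Hochberg adjusted p under 0.05 with limma. The value was positive for 74 of them (0.83% of the genes tested) and negative for 22 (0.247%), and 722 genes had an unadjusted p under 0.05. In each of the 96, the 4 differences between an M354 and a WT Treg array did not overlap the 4 in transduced cells, which held for 18.3% of all genes (7.34% toward higher values and 10.9% toward lower). The same model called 161 genes (1.81%) for M354 against WT in Tregs, where 79 rose (0.886%) and 82 fell (0.919%; after cyclic loess normalization 141 rose and 80 fell), and 119 (1.33%) in transduced cells, where 32 rose (0.359%) and 87 fell (0.976%).

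Across the 8918 genes the effects of M354 in both systems, which share no array, had a Pearson correlation of 0.179, given as a description since genes are not independent. The largest class held 34 genes that fell in transduced cells with no call in Tregs. A further 31 rose in Tregs with no call in transduced cells, and 3 rose in Tregs and fell in transduced cells. Among the negative values, 13 genes fell in Tregs only by call and 6 rose in transduced cells only by call, while 9 of the 96 were called in neither system alone. The scatter of both effects shows these classes along the vertical and horizontal axes and few genes on the diagonal.

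**Figure D1:**
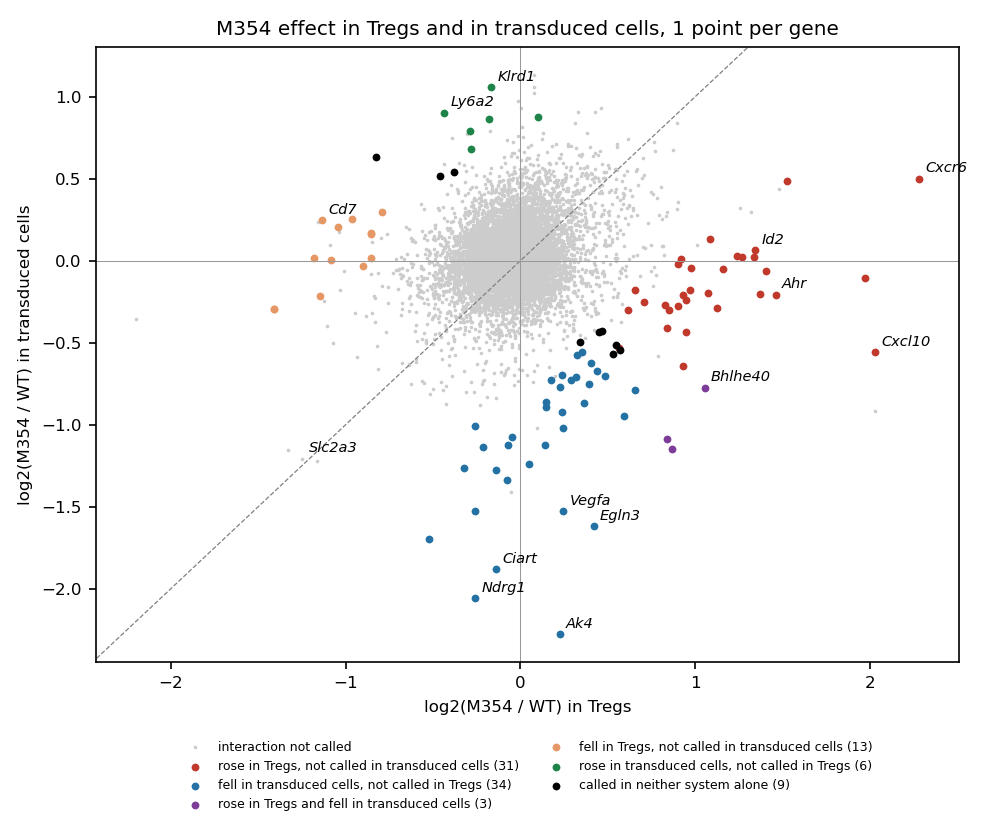
Each point is a gene, with the log2 ratio of M354 over WT in Tregs on the horizontal axis and in transduced cells on the vertical axis; colours mark the 96 genes called in the interaction by class, with the number of genes in the legend, and the dashed diagonal marks equal effects. The 34 genes that fell in transduced cells lie below the centre, the 31 that rose in Tregs lie to its right, and Slc2a3 lies near the diagonal.

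Foxp3 and T cell genes were bright in both systems, and transduced cells also held signal of B cell and CD8 genes. Foxp3 had intensities of 5991 and 5485 in M354 Tregs, 5913 and 5327 in WT Tregs, 5339.6 and 5821 in M354-transduced cells and 5945 and 6163 in WT-transduced cells, an interaction of 0.15 that was not called (SE 0.18, adjusted p = 0.869). The arrays do not show how much of it is transgene. The summed intensity of 12 T cell identity genes lay between 38676 and 41944 on all 8 arrays. The summed intensity of 16 B cell markers was 2896 and 2939 in M354 Tregs, 2866 in WT Treg replicate 1 and 5446 in WT Treg replicate 2, against 4827 to 5108 in M354-transduced and 5159 to 5241 in WT-transduced cells. In WT Treg replicate 2 the B cell gene Cd79a stood at 399, against 93.8 in replicate 1. The CD8 gene Cd8a stood at 82.1 to 106 in Tregs, against 348 to 449 in transduced cells. The part of these cells in the results was not tested. Over the 8918 genes tested and all 12 arrays, arrays of a group correlated at 0.984 to 0.992. Arrays of different groups of a system correlated at 0.925 to 0.991, which overlaps that range, and arrays of different systems at 0.886 to 0.932.

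The widest fall of the class in transduced cells was that of Ak4. This adenylate kinase gene, whose product works in mitochondria, had intensities of 53.3 and 60.0 in M354 Tregs and 45.8 and 51.0 in WT Tregs, below the median of every Treg array. In transduced cells Ak4 stood at 133 and 143 with M354, against 658 and 675 with WT. Both M354-transduced arrays were thus far below the WT-transduced ones, the Treg groups were close and dim, and the interaction was 2.50 (SE 0.18, adjusted p = 1.26e-06).

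Egln3 encodes a prolyl hydroxylase that marks HIF for destruction and is itself a target of HIF. It measured 308 and 288 in M354 Tregs and 227 and 218 in WT Tregs, while in transduced cells it measured 665 and 867 with M354 and 2564 and 2117 with WT. The Treg groups were close, with M354 slightly higher, the transduced groups were far apart, and the interaction was 2.04 (SE 0.24, adjusted p = 0.000324). Ndrg1, a stress-response gene known for its induction by hypoxia, measured 327 and 310.3 in M354 Tregs and 408 and 356 in WT Tregs. In transduced cells Ndrg1 measured 419 and 467 with M354 and 1772 and 1917 with WT, so that M354-transduced cells stood nearer to the Tregs than to WT-transduced cells. Its interaction was 1.80 (SE 0.18, adjusted p = 5.72e-05).

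The promoters of Ak4 and Egln3 are printed because both genes lead the class that fell in transduced cells. Each is the 250 bases before an annotated start, 5′ to 3′ on the gene's strand, from RefSeq on GRCm38.p6. Ak4 has 4 such windows listed, of which only the farthest upstream is printed, and Egln3 has 1. Capitals mark the hypoxia response cores found on either strand (GCGTG, or its reverse complement CACGC, in Ak4 and ACGTG in Egln3).
Ak4, chr4:101419039-101419288, plus strand: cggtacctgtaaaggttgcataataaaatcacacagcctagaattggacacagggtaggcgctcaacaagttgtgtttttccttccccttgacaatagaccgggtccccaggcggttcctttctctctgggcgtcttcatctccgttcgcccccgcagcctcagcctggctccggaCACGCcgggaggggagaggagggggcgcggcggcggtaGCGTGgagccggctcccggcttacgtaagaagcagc
Egln3, chr12:54203875-54204124, minus strand: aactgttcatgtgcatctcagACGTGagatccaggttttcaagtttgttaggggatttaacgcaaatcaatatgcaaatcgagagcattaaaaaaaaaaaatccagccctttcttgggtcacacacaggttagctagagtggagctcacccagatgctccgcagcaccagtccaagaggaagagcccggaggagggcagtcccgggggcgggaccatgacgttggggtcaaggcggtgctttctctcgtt
In the printed window of Ak4 the cores lie 74 to 70 and 36 to 32 bases before its start, and in Egln3 the core lies 229 to 225 bases before the start.

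The angiogenic growth factor gene Vegfa measured 147 and 103 in M354 Tregs and 122 and 88.1 in WT Tregs, groups that overlapped. In transduced cells it measured 175.7 and 189 with M354 and 536 and 514 with WT, and the interaction was 1.77 (SE 0.24, adjusted p = 0.000948). Ero1a, which makes disulfide bonds in the endoplasmic reticulum, measured 532 and 649 in M354 Tregs against 595 and 646 in WT Tregs, and 1320.3 and 1477 in M354-transduced against 3553 and 3496 in WT-transduced cells. Here too the Treg groups overlapped, and the interaction was 1.26 (SE 0.20, adjusted p = 0.00314). The collagen lysyl hydroxylase gene Plod2 moved in opposite directions. It measured 46.6 and 55.4 in M354 Tregs and 30.8 and 26.2 in WT Tregs, but 89.3 and 76.7 in M354-transduced and 175 and 175.7 in WT-transduced cells (interaction 1.92, adjusted p = 0.000131). Its Treg intensities lay below the median of their arrays, and its rise in Tregs was lost when M354 Treg replicate 2 (adjusted p = 0.0744) or replicate 2 of the WT Tregs (0.0646) was left out. Without either WT-transduced array Plod2 did not pass the filter on dim genes and was not tested.

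**Figure D2:**
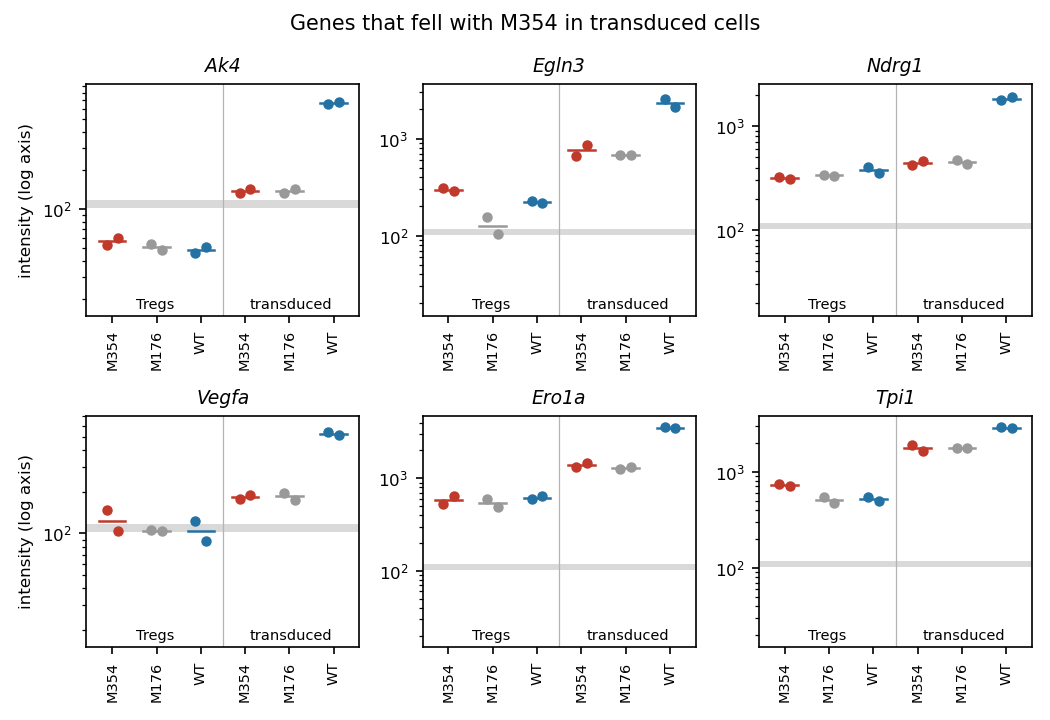
Intensity (log axis) of 6 genes on all 12 arrays, 1 point per array with a bar at the geometric mean of the group; Tregs are on the left and transduced cells on the right of each panel, and the grey band spans the array medians. The 2 WT-transduced arrays are the highest of each panel, while M354-transduced and M176-transduced arrays lie at similar, lower levels.

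The list of glycolysis and hypoxia genes had 18 tested members of 26 written. In the interaction 12 of them were higher and 0 lower, beside 0.83% and 0.247% of all genes. Their median was 0.97, beside -0.07 over all genes. In transduced cells 14 of the 18 fell with M354 and 0 rose, beside 0.976% and 0.359% of all genes (median -0.75, beside 0.01 over all genes). In Tregs 1 fell and 0 rose, beside 0.919% and 0.886% of all genes (median -0.04 for the list and for all genes). The median interaction was 0.997 after quantile and 1.01 after cyclic loess normalization. Between 5 and 9 members were called in the interaction with 1 of the 8 arrays left out, the 5 without M354-transduced replicate 1, and between 9 and 14 then fell in transduced cells. The list was written with results of these data known, so its direction is a description.

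Of the enzymes, Tpi1, which interconverts the triose phosphates, measured 740.0 and 707 in M354 Tregs and 538 and 495 in WT Tregs, where the M354 arrays were the higher ones without a call (adjusted p = 0.0668). In transduced cells Tpi1 measured 1881 and 1619 with M354, against 2876 and 2809 with WT. The interaction was 1.19 (SE 0.18, adjusted p = 0.00217) and held without any 1 array, though the fall in transduced cells was not called without M354-transduced replicate 2 (adjusted p = 0.0877). The mutase gene Pgam1 (1.03), the aldolase gene Aldoa (0.91), the hexokinase gene Hk2 (1.03) and the kinase gene Pgk1 (1.12) had positive interactions. Bnip3, a receptor for the removal of mitochondria, had 1.18, the ankyrin repeat gene Ankrd37 0.90 and the glucose transporter gene Slc2a1 0.75. Tpi1 and these 7 genes were named after their values were seen. Each of the 7 lost its call in the interaction with some single arrays left out (adjusted p 0.0513 to 0.213). For Pgam1 these were M354 Treg replicate 1, WT Treg replicate 2 and M354-transduced replicate 1, and for Aldoa M354 Treg replicate 2, WT Treg replicate 2 and either M354-transduced array. For Hk2 they were either M354 Treg array, WT Treg replicate 2, M354-transduced replicate 1 and WT-transduced replicate 1. Pgk1 lost its call without any array other than M354 Treg replicate 1 and WT-transduced replicate 2, Bnip3 without any other than WT Treg replicate 2 and also after quantile normalization, and Ankrd37 without any other than WT-transduced replicate 1. Slc2a1 lost it without any 1 of the 8, and also when the 8 arrays were fitted alone.

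Slc2a3, the other glucose transporter gene of the list, had no called interaction. It fell with M354 in both systems, with 481 and 503 in M354 Tregs against 1141 and 1195 in WT Tregs, and 1093 and 1213 in M354-transduced against 2678 and 2636 in WT-transduced cells. The log2 changes were -1.25 and -1.21, and the interaction was -0.04 (SE 0.18, adjusted p = 0.971). The list's other uncalled members included the kinase gene Pfkp at 0.81 (adjusted p = 0.0507), the lactate dehydrogenase gene Ldha at 0.29 and the pyruvate dehydrogenase kinase gene Pdk1 at -0.46. Hif1a itself, which encodes the oxygen-regulated subunit of HIF, was not called in either system (log2 0.17 in Tregs and -0.28 in transduced cells, SE 0.14 for both; interaction 0.45, adjusted p = 0.567). Pfkp, Ldha, Pdk1 and Hif1a were also named after their values were seen.

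Outside the list, the stanniocalcin gene Stc1, which encodes a secreted hormone, measured 70.1 and 96.7 in M354-transduced and 172 and 162 in WT-transduced cells (interaction 1.26, adjusted p = 0.00481). The mitochondrial gene Mgarp measured 59.1 and 52.0 in M354-transduced and 163 and 156 in WT-transduced cells (interaction 1.27, adjusted p = 0.00104), and it did not pass the filter without either WT-transduced array. The lipid droplet gene Hilpda measured 138 and 112 in M354-transduced and 281 and 321 in WT-transduced cells (interaction 1.13, adjusted p = 0.0164), a call that was lost without M354 Treg replicate 1, WT Treg replicate 2, M354-transduced replicate 2 or WT-transduced replicate 2 (adjusted p 0.0613 to 0.117). Stc1, Mgarp and Hilpda were named after their values were seen, and all 3 lay below the median of each M354 and WT Treg array. The same held for 12 of the 34 genes of the class, and it limits how far a fall could have been measured in Tregs.

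Ciart, a repressor of the circadian clock, measured 70.3 and 80.2 in M354 Tregs and 87.7 and 77.7 in WT Tregs. In transduced cells Ciart measured 70.5 and 68.9 with M354, close to the Tregs, against 301 and 219 with WT (interaction 1.74, SE 0.25, adjusted p = 0.00129). Its Treg and M354-transduced values all lay below the medians of their arrays, so a fall in Tregs had little room to be seen. Bhlhe40, which encodes a repressor that binds E-boxes and acts in the clock and in T cell cytokine production, rose in Tregs to 405 and 540.0 with M354, against 229.5 and 221 with WT. In transduced cells Bhlhe40 fell to 622 and 563 with M354, against 964 and 1061 with WT (interaction 1.83, adjusted p = 0.000131), a fall not called without M354-transduced replicate 2 (0.0735) or WT-transduced replicate 2 (0.0877). Nfil3, a repressor under circadian control in lymphocytes, measured 233 and 194 in M354 Tregs against 169.9 and 159 in WT Tregs, and 382 and 373 in M354-transduced against 658 and 719 in WT-transduced cells (interaction 1.23, adjusted p = 0.003). The third gene that moved oppositely was Prelid2, with 127 and 126 in M354 and 59.1 and 81.1 in WT Tregs, and 176.4 and 142 in M354-transduced and 415 and 297 in WT-transduced cells (interaction 2.02, adjusted p = 0.000325). Its rise in Tregs was not called without M354 Treg replicate 1 (0.118) or 2 (0.0798) or WT Treg replicate 1 (0.162).

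The promoter of Ciart, printed in the same way, shows E-boxes (CACGTG, in capitals), the element through which clock factors act and whose letters also contain ACGTG.
Ciart, chr3:95882229-95882478, minus strand: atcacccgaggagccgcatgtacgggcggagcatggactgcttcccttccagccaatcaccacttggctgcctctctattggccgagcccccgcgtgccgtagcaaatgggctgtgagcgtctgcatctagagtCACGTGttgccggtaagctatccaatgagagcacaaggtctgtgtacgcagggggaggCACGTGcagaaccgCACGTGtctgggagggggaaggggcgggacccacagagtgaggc
Its 3 E-boxes begin 116, 58 and 44 bases before the start.

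The transcription factor gene Maf measured 1723 and 1791 in M354 Tregs against 1342 and 1332 in WT Tregs, but 906 and 1009.7 in M354-transduced against 1663 and 1561 in WT-transduced cells (interaction 1.15, adjusted p = 0.00217). Its direction was thus opposite in the systems, without a call in Tregs (adjusted p = 0.141), and the fall in transduced cells was not called without M354-transduced replicate 1 (0.0843). Nt5e, which encodes CD73, an enzyme that makes adenosine on the surface of Tregs, measured 2629 and 2686 in M354 against 2066 and 1948 in WT Tregs, and 763 and 823 in M354-transduced against 1309.6 and 1135 in WT-transduced cells (interaction 1.03, adjusted p = 0.00712). Its fall in transduced cells was not called without either M354-transduced array (0.256 and 0.0638) or WT-transduced replicate 1 (0.12). The receptor gene Tnfrsf8 (CD30) measured 189.9 and 197 in M354-transduced and 351 and 352 in WT-transduced cells, with an interaction of 1.01 (adjusted p = 0.00614). Tnfrsf9 (4-1BB), a costimulatory receptor high in activated Tregs, measured 1135 and 1389 in M354 and 1599 and 1325 in WT Tregs, which overlapped. In transduced cells it measured 1084 and 1003 with M354 and 2169 and 2424 with WT (interaction 0.92, adjusted p = 0.0416). The interaction of Tnfrsf9 was not called without M354 Treg replicate 2, WT Treg replicate 2, either M354-transduced array or WT-transduced replicate 2 (0.0994 to 0.212), nor in a fit of the 8 arrays alone. Lta, which encodes lymphotoxin, had 1.11 (adjusted p = 0.00838, or 0.0527 without WT Treg replicate 2), and its fall in transduced cells was lost without either M354-transduced array or WT-transduced replicate 2 (0.0757 to 0.23).

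M176-transduced cells gave another mutant level for this class. Ak4 measured 132.8 and 142.7 with M354 and 133.3 and 143.4 with M176, a log2 difference of -0.01 (SE 0.13). Ndrg1 measured 419 and 467 with M354 and 475 and 434 with M176 (-0.04, SE 0.13), and Vegfa 175.7 and 189 with M354 and 197 and 173 with M176 (-0.02, SE 0.17). None of the 34 genes, nor of the 3 that moved oppositely, was called for M354 against M176 in transduced cells, a comparison that called 7 genes (0.0785%; 5 higher, 0.0561%, and 2 lower, 0.0224%) and shares its M354-transduced arrays with the others. The absence of calls here is near the share of 0.0785% over all genes and does not show that the mutants are alike. For Ak4, Ndrg1 and Vegfa both WT-transduced arrays stood above all 4 mutant arrays, and no level without Foxp3 was measured to set beside them. Of the 34 genes, 29 were also lower in WT Tregs than in WT-transduced cells, beside 19.4% of all genes (30.2% differed in either direction). Between M354 Tregs and M354-transduced cells 25 of the 34 differed, beside 47.5% of all genes. Both comparisons use arrays that also chose the 34 genes. A high WT-transduced or low WT Treg level enters both the choice and the first comparison, so these shares are descriptions only.

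Genes that rose with M354 in Tregs were led by a chemokine. Cxcl10, which draws cells with the receptor Cxcr3 and is induced by interferons, measured 1180.2 and 928 in M354 Tregs and 245 and 268 in WT Tregs. In transduced cells it measured 75 and 99.6 with M354 and 131 and 123 with WT, lower with M354 on both arrays but without a call (adjusted p = 0.102). Its interaction was 2.59 (SE 0.22, adjusted p = 5.58e-06). Cxcl10 was the only member called in the interaction of 28 tested genes of the interferon response list, whose median was 0.04. Over all genes 1.08% were called.

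The promoter of Cxcl10 is printed because the gene has the highest interaction among named genes, with an interferon response element and a pair of kappa B patterns in capitals.
Cxcl10, chr5:92348890-92349139, minus strand: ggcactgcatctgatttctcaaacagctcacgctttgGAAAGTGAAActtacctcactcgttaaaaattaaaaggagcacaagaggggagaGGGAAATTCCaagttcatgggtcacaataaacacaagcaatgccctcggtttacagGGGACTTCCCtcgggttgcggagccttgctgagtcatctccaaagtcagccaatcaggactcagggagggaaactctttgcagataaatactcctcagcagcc
The interferon response element begins 213 bases and the kappa B patterns 159 and 103 bases before the start.

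The chemokine receptor gene Cxcr6 measured 458 and 649.8 in M354 Tregs, against 94.9 and 132 in WT Tregs, and 1024 and 833 in M354-transduced, against 658 and 647 in WT-transduced cells. WT Tregs were lowest, and with M354 the Tregs came near the WT-transduced level (interaction 1.78, SE 0.27, adjusted p = 0.00217). Ahr, a transcription factor activated by small molecules of diet and environment, measured 1783 and 1732 in M354 Tregs and 589.8 and 689.5 in WT Tregs. In transduced cells Ahr measured 228 and 292 with M354 and 316 and 281 with WT, groups that overlapped (interaction 1.67, SE 0.21, adjusted p = 0.000325). Id2 encodes a protein that holds E proteins off DNA. It measured 1661 and 2071 in M354 and 716 and 747 in WT Tregs, and 4891 and 4874 in M354-transduced and 4833 and 4508 in WT-transduced cells (interaction 1.28, adjusted p = 0.00365). For Id2 the transduced cells were well above the Tregs with either form. Tnfsf8, the ligand of CD30, measured 829 and 1025 in M354 and 365 and 402 in WT Tregs, and 1008 and 849 in M354-transduced and 901 and 916 in WT-transduced cells (interaction 1.24, adjusted p = 0.00397). The M354 Tregs thus reached the range that both transduced groups shared.

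**Figure D3:**
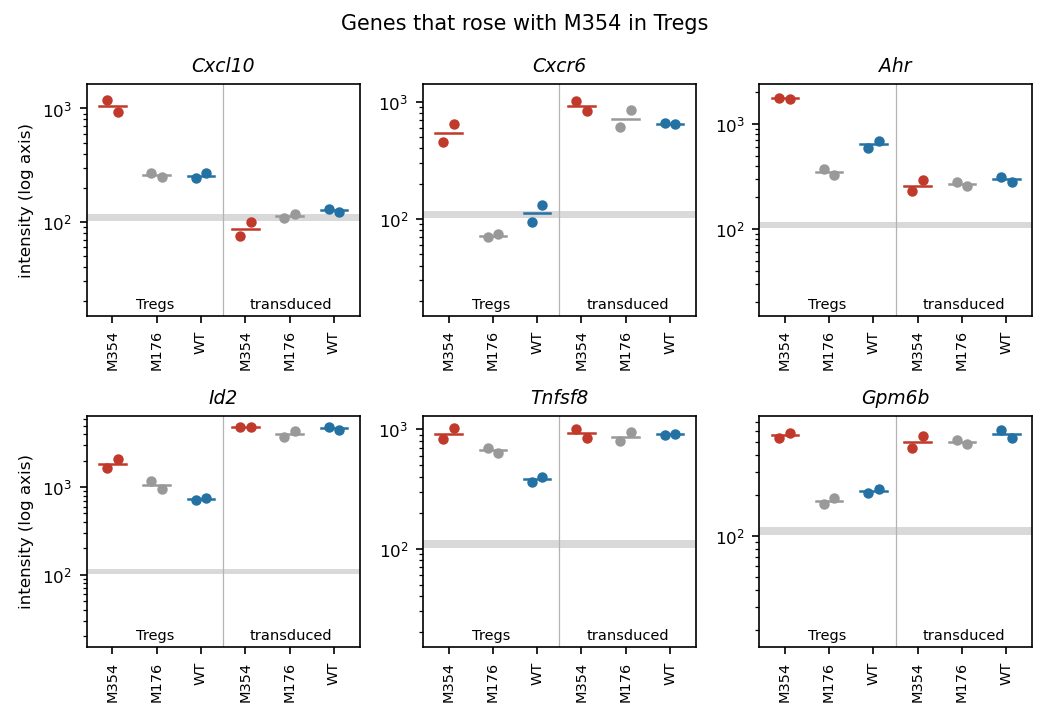
Intensity (log axis) of 6 genes on all 12 arrays, drawn as 1 point per array with a bar at the geometric mean of the group, Tregs on the left and transduced cells on the right; the grey band spans the array medians. The 2 M354 Treg arrays lie above both WT Treg arrays in each panel, while M354-transduced and WT-transduced arrays overlap in the panels of Ahr, Tnfsf8 and Gpm6b and not in those of Cxcl10, Cxcr6 and Id2.

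The membrane glycoprotein gene Gpm6b measured 536 and 581 in M354 and 209 and 223 in WT Tregs, and 448 and 549.7 in M354-transduced and 608 and 534 in WT-transduced cells (interaction 1.57, adjusted p = 0.000325). Ell2, a factor of transcript elongation, had an interaction of 1.57 (adjusted p = 0.00161), with a rise in Tregs that was lost once M354 Treg replicate 1 (0.094) or replicate 1 of the WT Tregs (0.0796) was omitted. Naip5, a sensor of bacterial flagellin, measured 525 and 513 in M354 and 182 and 210.2 in WT Tregs and 41.1 to 61.3 in all 4 transduced arrays (interaction 1.47, adjusted p = 0.00641). The probe sets of Naip5 and of its near copy Naip6, also called (1.14, adjusted p = 0.0194), may share signal, so their separate values are uncertain. The call of Naip6 was lost without either M354 Treg array, WT Treg replicate 1, M354-transduced replicate 2 or WT-transduced replicate 2 (0.0508 to 0.109). Casp4, an inflammatory caspase, measured 408 and 449 in M354 and 188 and 206 in WT Tregs, and 174 and 174 in M354-transduced and 210.1 and 215 in WT-transduced cells (interaction 1.41, adjusted p = 0.000539). Casp4 and Naip6 were named after their values were seen. Srsy, a multicopy gene of the Y chromosome whose probe sets cannot separate its copies, had 2.08 (SE 0.41, adjusted p = 0.0166), lost without either M354 Treg array or WT Treg replicate 1 (0.0594 to 0.0886) and after cyclic loess normalization.

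Further members of the effector Treg, cytokine and integrin lists were called. Ebi3, the subunit of interleukins 27 and 35, measured 506 and 736 in M354 and 300.3 and 324 in WT Tregs, and 433 and 551 in M354-transduced and 568 and 539 in WT-transduced cells (interaction 1.15, adjusted p = 0.0239). Its call was lost without M354 Treg replicate 2, WT Treg replicate 1, M354-transduced replicate 1 or WT-transduced replicate 1 (0.0538 to 0.152). The inhibitory receptor gene Tigit was higher with M354 in Tregs and lower in transduced cells, with 2906 and 3220.1 in M354 and 2305 and 1857 in WT Tregs, and 1287 and 1423 in M354-transduced and 2038 and 1884 in WT-transduced cells (interaction 1.10, adjusted p = 0.00679). The interaction of Tigit held without any 1 array, but its rise in Tregs was lost without either M354 Treg array, WT Treg replicate 2 or either M354-transduced array (0.0567 to 0.429). The integrin gene Itgb1 measured 1031 and 1284 in M354 and 593 and 640.2 in WT Tregs, and 991 and 890.3 in M354-transduced and 985 and 921 in WT-transduced cells (interaction 0.92, adjusted p = 0.0382), a call that held only without M354 Treg replicate 1 among the single arrays left out (0.064 to 0.159 for the others) and that was lost in a fit of the 8 arrays alone. Tnf, the tumour necrosis factor gene, was called in the interaction (0.90, adjusted p = 0.0367) and in neither system alone, and the call was lost without any 1 of the arrays other than M354 Treg replicate 1 and WT-transduced replicate 1 (0.0906 to 0.135), as well as in a fit of the 8 arrays alone.

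Of the 31 genes that rose in Tregs only by call, 29 were higher in M354 Tregs than in M176 Tregs. Of all genes, 12.7% were higher in that comparison. Its M354 Treg arrays also chose the 31 genes, so the share is a description only. Ahr, for one, stood at 368 and 328 in M176 Tregs, below both other groups. Foxp3 itself stood at 3442 and 3321 in M176 Tregs, against 5991 and 5485 in M354 Tregs, and its part here was not tested. On the transduced side 11 of the 31 lay below the median of all 4 arrays, so that a fall there had little room to be seen. With M354 the distance between the systems was smaller for 55 of the 96 called genes and larger for 41. This split uses the same 8 arrays as the calls and was not counted over all genes, so it is a description. Over all genes the systems differed by call in 30.2% with WT (10.9% higher and 19.4% lower in Tregs). With M354 they differed in 47.5% (15.2% higher and 32.3% lower in Tregs). Both shares come from the main fit and were not counted under the other settings. What sets them apart was not tested.

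Negative interactions were led by genes that fell with M354 in Tregs and not by call in transduced cells. Cd7, a surface receptor of T cells, measured 553 and 551 in M354 Tregs and 1284 and 1144 in WT Tregs, against 1581 and 1459 in M354-transduced and 1332 and 1231 in WT-transduced cells. Between WT Tregs and WT-transduced cells the log2 difference was -0.08 (SE 0.13), and both M354 Treg arrays were the lowest of the 8 (interaction -1.38, SE 0.18, adjusted p = 0.000676). Sidt1, a transmembrane protein of the family of nucleic acid transporters, measured 738 and 836 in M354 and 1512 and 1552 in WT Tregs, and 1074 and 1088 in M354-transduced and 904 and 904 in WT-transduced cells (interaction -1.22, adjusted p = 0.00141). The nucleoside transporter gene Slc28a2b measured 261 and 326 in M354 and 656 and 665 in WT Tregs, and 1681 and 1583 in M354-transduced and 1629.9 and 1588 in WT-transduced cells (interaction -1.20, adjusted p = 0.00365). Tsc22d3, the glucocorticoid-induced leucine zipper gene, measured 176.5 and 169 in M354 and 372 and 358 in WT Tregs, and 217 and 211 in M354-transduced and 227 and 201 in WT-transduced cells (interaction -1.08, adjusted p = 0.00365). For these 4 genes the Treg groups were apart and the transduced cells differed by 0.26 or less on the log2 scale, without a call.

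**Figure D4:**
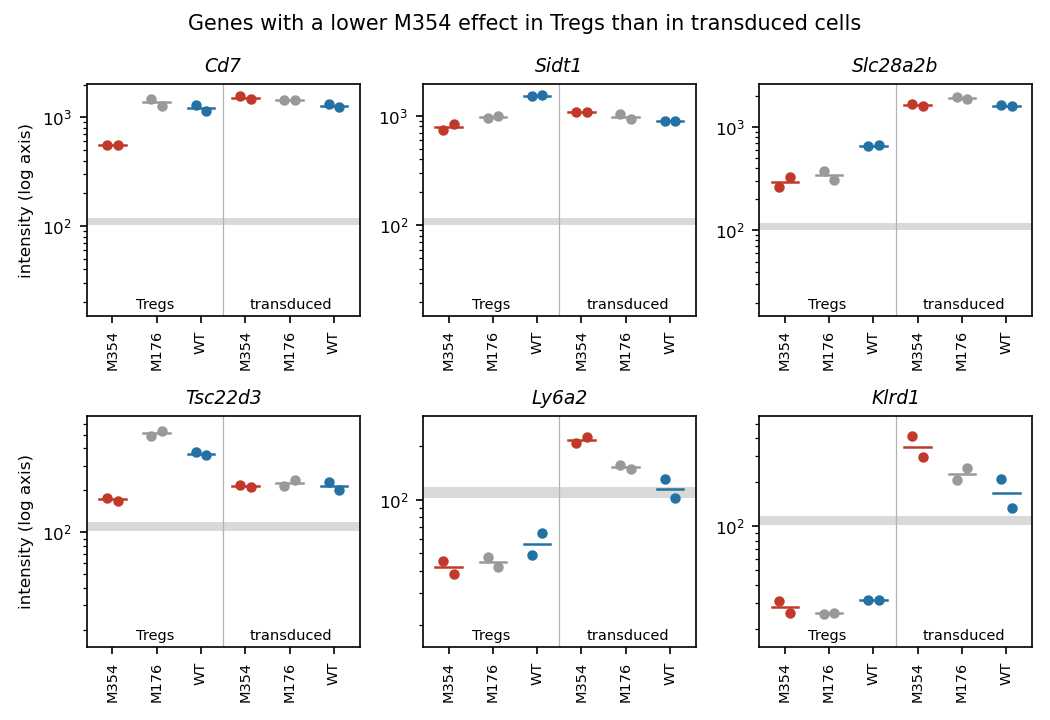
Intensity (log axis) of 6 genes with a negative interaction on all 12 arrays, 1 point per array and a bar at the geometric mean of the group, Tregs on the left and transduced cells on the right, with the array medians as a grey band. In the panels of Cd7, Sidt1, Slc28a2b and Tsc22d3 the M354 Treg arrays lie below the WT Treg arrays, and in those of Ly6a2 and Klrd1 the M354-transduced arrays lie above the WT-transduced arrays.

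The ubiquitin ligase gene Mid1 had an interaction of -1.12 (adjusted p = 0.00848, or 0.0518 without M354 Treg replicate 2). The interactions of the nucleotide-sugar transporter gene Slc35d1 (-1.12), the kinase gene Prkd3 (-1.09), the cannabinoid receptor gene Cnr2 (-1.02), the antiviral gene Ifitm3 (-1.25), the chromatin organiser gene Satb1 (-0.86) and the B cell receptor gene Cd72 (-1.02) each lost their call without 3 to 6 of the 8 arrays taken singly (adjusted p 0.0553 to 0.277), M354 Treg replicate 1 and WT Treg replicate 2 in every case. The others were M354 Treg replicate 2, M354-transduced replicate 2 and WT-transduced replicate 2 for Slc35d1 and Prkd3, and M354-transduced replicate 2 for Cnr2. For Ifitm3 they were M354-transduced replicate 1 and WT-transduced replicate 2, and for Cd72 the same and WT Treg replicate 1. For Satb1 they were WT Treg replicate 1, either M354-transduced array and WT-transduced replicate 2. Slc35d1, Ifitm3, Satb1 and Cd72 also lost their call in a fit of the 8 arrays alone, and Satb1 after quantile normalization. Cd72 measured 187 and 243 in M354 Tregs and 399 and 371 in WT Tregs, high on both WT arrays, whereas the B cell genes Cd79a (93.8 and 399) and Ms4a1 (38.0 and 213) were high in WT Treg replicate 2 only.

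A smaller set of 6 genes rose with M354 in transduced cells with no call in Tregs. Of the 6, 4 lay below the median on every M354 and WT Treg array, which limits what could be seen there. Ly6a2, of the Ly6 family of surface proteins, was dim in Tregs, at 45.5 and 38.3 with M354 and 49.0 and 65.3 with WT. In transduced cells Ly6a2 measured 208 and 224 with M354 and 129.6 and 102 with WT (interaction -1.34, SE 0.23, adjusted p = 0.00458). Its rise in transduced cells was not called without M354-transduced replicate 2 (0.0536) or WT-transduced replicate 2 (0.0878). Klrd1, which encodes CD94 of natural killer and CD8 T cells, measured 409.9 and 298 in M354-transduced and 209 and 134 in WT-transduced cells (interaction -1.23, adjusted p = 0.0336). Gpnmb, a membrane glycoprotein of macrophages, and the sialyltransferase gene St3gal6 had interactions of -1.08 and -1.05 (adjusted p = 0.0423 and 0.0134). The calls of Klrd1, Gpnmb and St3gal6 were each lost without 4 to 6 of the 8 arrays (0.0508 to 0.224), and those of Klrd1 and Gpnmb in a fit of the 8 arrays alone. The arrays were any other than M354-transduced replicate 2 and WT-transduced replicate 1 for Klrd1. For Gpnmb they were either M354 Treg array, WT Treg replicate 1, M354-transduced replicate 2 and WT-transduced replicate 2, and for St3gal6 replicate 2 of each of the 4 groups. The rises of Klrd1 and Gpnmb in transduced cells were also not called without M354-transduced replicate 1 or WT-transduced replicate 2. That of Gpnmb was lost without M354-transduced replicate 2 as well. The summed intensity of 11 markers of CD8 T and NK cells was 2883 to 3354 in M354 Tregs and 1947 to 2122 in WT Tregs, and 5788 to 6172 in M354-transduced and 4474 to 5390.5 in WT-transduced cells, and the part of such cells in the rises in Tregs or in that of Klrd1 was not tested. Within that list Nkg7, a granule gene named after its values were seen, rose in Tregs, with 2466 and 2031 in M354 and 1184 and 1039 in WT Tregs (a call lost without M354 Treg replicate 1, adjusted p = 0.0504), while Cd8a had a log2 change of -0.01 there. The T cell receptor adaptor gene Trat1 (-0.97) and the transcription factor gene Eomes (-0.92) were called in the interaction and in neither system alone, and both calls were lost without either M354 Treg array, WT Treg replicate 2, WT-transduced replicate 2 and M354-transduced replicate 1 (Trat1) or 2 (Eomes) (0.0685 to 0.212). Both were also lost after cyclic loess normalization and in a fit of the 8 arrays alone.

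The counts of list members below stand beside 0.83% of all genes called higher and 0.247% called lower in the interaction. In Tregs 0.886% of all genes rose and 0.919% fell, and in transduced cells 0.359% rose and 0.976% fell. Of 25 tested genes of the effector Treg list, 8 were higher and 0 lower in the interaction (median 0.38, beside -0.07 over all genes); 6 rose in Tregs and 5 fell in transduced cells. Of 25 genes of the Treg signature, 4 were higher and 0 lower (median 0.41). In that list 9 fell and 0 rose in transduced cells, while 3 rose and 1 fell in Tregs. The 9 included Tnfrsf18 and Tnfrsf4, costimulatory receptors of the TNF family, with log2 changes of -0.61 and -0.69, and their interactions of 0.41 and 0.66 were not called (adjusted p = 0.556 and 0.176). The falls of both were lost without either M354-transduced array or WT-transduced replicate 2 (0.0772 to 0.187). Tnfrsf18 and Tnfrsf4 were named after their values were seen. Only 2 members of the Treg signature were called in the interaction without M354 Treg replicate 2 or without M354-transduced replicate 1, and 2 to 9 fell in transduced cells with an array left out.

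Helper lineage factors had 4 higher and 1 lower of 19 (median 0.42), costimulatory and inhibitory receptors 5 and 1 of 22 (median 0.39), and cytokines and TNF ligands 4 and 0 of 14 (median 0.45). Lists share members, so their counts are not separate results. The 4 higher helper factors, Ahr, Id2, Nfil3 and Maf, are also effector Treg members. Tigit and Tnfrsf9 count in the effector Treg, Treg signature and receptor lists, and Ebi3 in the effector Treg, Treg signature and cytokine lists. The receptors kept 2 or 3 higher calls with any 1 array left out, and the cytokines 2 to 4. Resting state genes leaned the other way, with 0 higher and 1 lower of 10 (Satb1) and a median of -0.35; 3 of them fell in Tregs and 0 changed by call in transduced cells. Il7r, which encodes the receptor of interleukin 7, fell in Tregs (-0.79) with an uncalled interaction of -0.64 (adjusted p = 0.166).

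The early response to receptor signals had no called interaction among 23 members (median 0.20), 7 falls in transduced cells and 2 in Tregs. In both systems fewer members fell by call with some single arrays left out, and never more. Jun, a subunit of AP-1, fell in both systems, with 918 and 1093 in M354 against 1599.8 and 1494 in WT Tregs and 763 and 904 in M354-transduced against 1419.9 and 1380.5 in WT-transduced cells (interaction 0.13, adjusted p = 0.896). Its fall was not called in Tregs without M354 Treg replicate 1 or either WT Treg array (0.0665 to 0.207), nor in transduced cells without M354-transduced replicate 1 (0.157). The member with the widest interaction was the phosphatase gene Dusp4 (0.82, adjusted p = 0.119). Of 35 proliferation genes, 5 rose in Tregs and 4 in transduced cells, with medians of 0.47 and 0.48 and 0 called interactions (median 0.01). Between 0 and 11 of them rose in Tregs, and 0 to 6 in transduced cells, with 1 array left out, and the median interaction then lay between -0.13 and 0.17. Ribosomal protein genes had 0 called interactions among 54, of which 3 were positive (median -0.31), and 3 rose in transduced cells. Over all genes 3346 of 8918 interactions were positive. With 1 array left out the ribosomal median lay between -0.51 and -0.15, with 1 to 12 positive values. Small nucleolar and Cajal body RNAs also had 0 calls among 38 (median -0.40, but 0.08 without M354-transduced replicate 1). Cholesterol synthesis (20 genes, median -0.17, widest Scd1 at -0.95 with a WT Treg pair of 45.9 and 231), heat shock (11, median -0.28), IL-2 and STAT5 targets (13, median 0.20), cytokine receptors (20, median -0.21) and cytotoxic granule genes (11, median -0.11) had no called member in the interaction. The widest uncalled members of those lists and of the ribosomal list included Gzma, a granule protease (-0.98), Rps29, of the small ribosomal subunit (-0.93), the kinase gene Pim1 (-0.85) and the mitochondrial chaperonin gene Hspe1 (-0.81), with adjusted p of 0.195, 0.267, 0.182 and 0.191. The chemokine system had 2 higher of 13 (median 0.15), TGF-beta and integrins 1 higher of 20 (median 0.04), and genes that the Treg signature lowers 1 higher and 1 lower of 14 (median -0.32). B cell markers had 1 lower of 15, Cd72, and a median of -0.31 that was -0.75 without WT Treg replicate 1 and 0.22 without WT Treg replicate 2. CD8 T and NK markers had 0 higher and 2 lower of 6, Klrd1 and Eomes, with a median of -0.67 that was -0.20 over 11 members without the filter on dim genes. T cell identity genes had 0 higher and 1 lower of 12, Trat1, and a median of 0.02. Lists of plasma cell, myeloid, dendritic and erythroid markers had 0 called members among 12 tested.

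**Figure D5:**
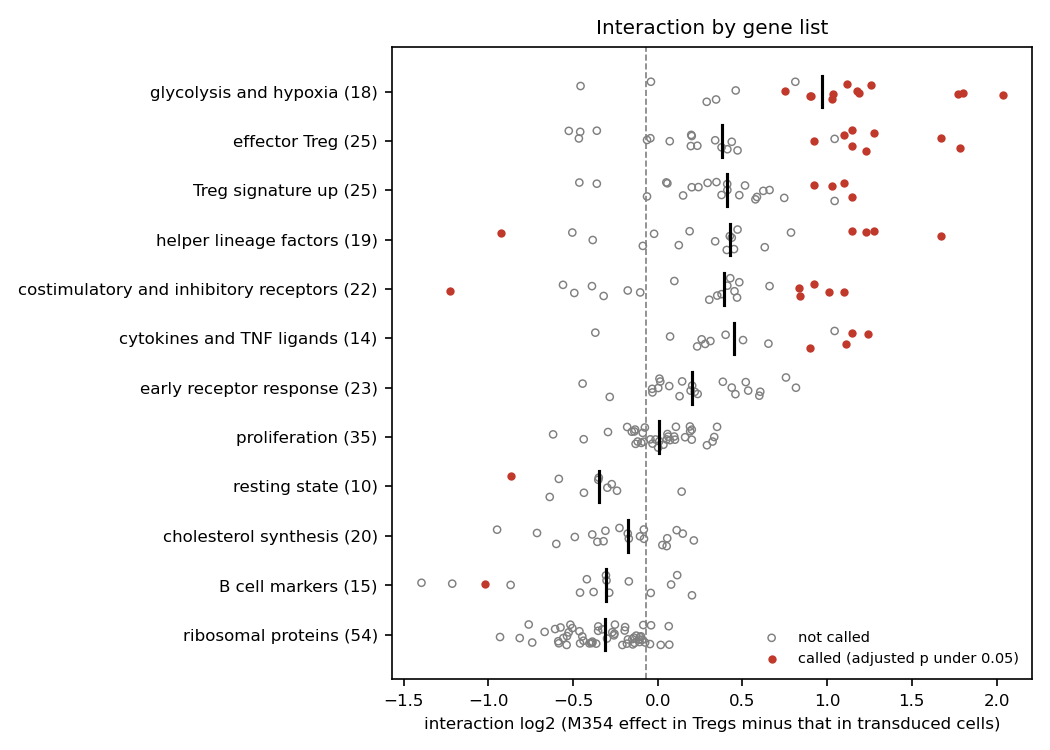
Interaction log2 (horizontal axis) of every tested member of 12 gene lists, with the number of members in brackets, called members as filled points, the list median as a black bar and the median of all genes as a dashed line. Glycolysis and hypoxia genes have a median of 0.97, while proliferation genes centre at 0.01 and ribosomal protein genes at -0.31.

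Called in the same direction in both were 12 genes, 7.45% of the calls in Tregs and 10.1% of those in transduced cells, of which 10 fell and 2 rose, and none of the 12 was called in the interaction. Gpr83, an orphan receptor that marks Tregs, measured 1042 and 1097 in M354 and 2588 and 2224 in WT Tregs, and 184 and 263 in M354-transduced and 517 and 510.1 in WT-transduced cells. The levels of the systems lay far apart, the changes were -1.17 and -1.22 on the log2 scale, and the interaction was 0.06 (SE 0.21). Atp6v0d2, a subunit of the proton pump of acid organelles, measured 22.7 and 20.5 in M354 and 52.8 and 55.7 in WT Tregs, and 157 and 207 in M354-transduced and 433 and 373 in WT-transduced cells (interaction -0.17, SE 0.21). In Tregs it was dim on all arrays. Stmn1 and Cks2, genes of dividing cells, rose in both systems, with interactions of 0.06 and 0.10 (SE 0.26 and 0.21). The falls of Slc2a3, Gpr83 and Atp6v0d2 were called in both systems with each of the 8 arrays left out, whereas those of the fatty acid elongase gene Elovl6, the phosphatase gene Ptprj, the guanylate-binding protein gene Gbp2b and Chil5, and the rises of Stmn1 and Cks2, were lost in either system without 2 to 7 of them (adjusted p 0.0502 to 0.56).

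Of the 37 genes that fell in transduced cells with a higher interaction, 27 had a promoter in the table, in 38 windows of 250 bases. ACGTG was present on either strand in 47.4% of these windows, beside 21.8% of the windows of tested genes and 16.6% of all windows. GCGTG was present in 47.4%, beside 44.8% of tested and 28.2% of all windows, and either core in 68.4%, beside 56.1% and 38.6%. The E-box CACGTG, which accounts for part of the ACGTG matches, was present in 15.8%, beside 8.38% and 6.02%. Of the 31 genes that rose in Tregs, 25 had 32 windows, of which 37.5% held either core, 6.25% the interferon response element (2.54% of tested windows) and 25% the kappa B pattern (22.7% of tested windows). The forkhead pattern GTAAACA was in 0% of the windows of genes that fell in transduced cells and in 6.25% of those of genes that rose in Tregs, beside 2.09% of tested windows. Windows of a gene overlap where it has several starts, and these shares are descriptions of letters, not of binding.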

How the data were processed

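RNA of 12 samples, 2 arrays in each of 6 groups taken from the sample titles, was measured on mouse Affymetrix ST1.0 arrays. RMA in Affymetrix Power Tools was the authors' summary method, per the submitters' processing notes. The deposited values are linear intensities, 1 per probe set and array, with array medians of 101.5 to 117.4. No build or version of that step was found in the labels. Arrays have no depth, and their number limits the precision. Of 20716 probe sets 17703 had 1 gene symbol, 1246 several and 1767 none; 17635 Entrez numbers matched the reference table. They named 16426 genes, and for 734 with several probe sets the brightest over 12 arrays was used. Genes above the median of their own array (percentile 50) on at least 2 arrays were tested, 8918 in all. Named genes of chromosomes 1, 10 and 11 were few (29, 15 and 226), which shortens the lists.

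limma 3.58.1 (R 4.3.3) modelled log2 intensities with 1 mean per group over 12 arrays, no block, 6 residual degrees of freedom and an empirical Bayes prior worth 10.9. Adjusted p are limma's, Benjamini-Hochberg over the genes tested. SE is the standard error of a log2 difference. The fit was tested on simulated data. The labels do not say whether replicate numbers pair samples across groups, and the model took them as unpaired. Over 15 pairs of groups, the differences between replicates 1 and 2 correlated at -0.55 to 0.25, over 0.1 in 3. Replicate differences of some groups thus varied together across genes, which the model does not account for.

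Members and gene lists were chosen with earlier results of these data known. Named genes are Foxp3, the 15 highest and 15 lowest called interactions without overlap of the differences (predicted genes, clone names and small RNAs left out), genes called in both systems in opposite directions, up to 10 called alike with the smallest interaction, and up to 4 called members of each list, or the widest uncalled one; genes named outside the rule are marked. The comparisons of M354 with M176 were added after the values had been seen. Alternatives were quantile and cyclic loess normalization, 2 other filters, the 8 arrays only, a replicate block, an intensity trend, the mean of probe sets, and leaving out each array.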

Additional observations from a re-analysis of the deposited data

Results flagged for a closer look

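Every result below differed between the systems by the interaction test at an adjusted p under 0.05; values are interaction log2, M354 over WT in Tregs minus M354 over WT in transduced cells. The number of such genes was 96.

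Among genes that fell with M354 in transduced cells with no call in Tregs, the values were 2.50 for Ak4, 2.04 for Egln3, 1.80 for Ndrg1, 1.77 for Vegfa, 1.74 for Ciart, 1.26 for Ero1a, 1.23 for Nfil3, 1.15 for Maf, 1.11 for Lta, 1.03 for Nt5e, 1.01 for Tnfrsf8 and 0.92 for Tnfrsf9. The 3 genes that rose in Tregs and fell in transduced cells had 2.02 (Prelid2), 1.92 (Plod2) and 1.83 (Bhlhe40). Those that rose in Tregs with no call in transduced cells had 2.59 (Cxcl10), 2.08 (Srsy), 1.78 (Cxcr6), 1.67 (Ahr), 1.57 (Gpm6b), 1.57 (Ell2), 1.47 (Naip5), 1.28 (Id2), 1.24 (Tnfsf8), 1.15 (Ebi3), 1.10 (Tigit) and 0.92 (Itgb1). Tnf, called in neither system alone, had 0.90.

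Negative values belonged to genes that fell in Tregs, with -1.38 for Cd7, -1.25 for Ifitm3, -1.22 for Sidt1, -1.20 for Slc28a2b, -1.12 for Slc35d1, -1.12 for Mid1, -1.09 for Prkd3, -1.08 for Tsc22d3, -1.02 for Cd72, -1.02 for Cnr2 and -0.86 for Satb1. Genes that rose in transduced cells had -1.34 (Ly6a2), -1.23 (Klrd1), -1.08 (Gpnmb) and -1.05 (St3gal6). Trat1 with -0.97 and Eomes with -0.92 were called in neither system alone.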

How the results depend on the processing

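Of the 96 genes called in the interaction, 27 were called under all 16 settings tried and 39 with each of the 8 arrays left out, and no sign changed among the 96. The count of interaction calls was 54 (41 higher, 13 lower) with the filter at percentile 75, and 57 to 88 with 1 array left out: 57 without M354 Treg replicate 1, 58 without WT Treg replicate 2 and 57 without M354-transduced replicate 1. The cause was not tested; a stricter filter tests fewer genes and an omitted array leaves fewer samples. The share of higher calls moved by over 10 percentage points without WT Treg replicate 1 (53 higher, 30 lower) and WT-transduced replicate 1 (55 and 33). Calls in Tregs were 277 (147 higher, 130 lower) after quantile normalization, 141 higher and 80 lower after cyclic loess, and 70 to 211 with an array left out (70 without M354 Treg replicate 1, 92 without replicate 2, 93 without WT Treg replicate 1). Calls in transduced cells were 76 at percentile 75 and 40 to 130 with an array left out (40, 3 higher and 37 lower, without M354-transduced replicate 1; 59, 2 and 57, without WT-transduced replicate 2; 130, 74 and 56, without WT-transduced replicate 1). With the replicate number as a block, which the design does not give as a pairing, the interaction calls were 78 (63 higher, 15 lower), and of the genes named Ifitm3, Slc35d1, Tnfrsf9, Gpnmb, Tnf, Bnip3, Eomes, Itgb1 and Slc2a1 were not among them. A fit of the 8 arrays alone gave 71 (60 and 11).

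Single interaction values reversed only where they were small or uncalled. With 1 array left out they ranged from -0.37 to 0.024 for Atp6v0d2, -0.37 to 0.064 for Chil5, -0.078 to 0.28 for Cks2, -0.18 to 0.066 for Elovl6, -0.11 to 0.16 for Gbp2b, -0.20 to 0.31 for Gpr83, -0.19 to 0.19 for Ptprj, -2.12 to 0.22 for Scd1, -0.12 to 0.034 for Slc2a3 and -0.27 to 0.39 for Stmn1. Quantile normalization gave 0.031 for Elovl6, -0.15 for Gbp2b and 0.14 for Slc2a3, cyclic loess 0.058 for Elovl6 and 0.082 for Slc2a3, and the mean of probe sets -0.088 for Ptprj. Genes below the array medians in a system limit what can be seen there.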

Other observations

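Outside the lists, several genes of metabolism and signalling stood in the class that fell with M354 in transduced cells with no call in Tregs. The transglutaminase gene Tgm2 measured 97.4 and 97.8 in M354 against 98 and 80.0 in WT Tregs, and 112 and 119 in M354-transduced against 268 and 236 in WT-transduced cells (interaction 1.26, adjusted p = 0.00269). Its Treg values lay below the medians of their arrays. The phosphoglucomutase gene Pgm1, at the branch to glycogen, had 1.04 (adjusted p = 0.00802, or 0.0553 without WT Treg replicate 2). Gnaq, a G protein subunit, measured 471 and 492 in M354 against 288 and 325 in WT Tregs, but 231 and 296 in M354-transduced against 545 and 373 in WT-transduced cells (interaction 1.44, adjusted p = 0.00614). The fall of Gnaq in transduced cells was lost without either M354 Treg array, M354-transduced replicate 1 or WT-transduced replicate 1 (0.052 to 0.444).

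Among the genes that rose in Tregs, the leukotriene receptor gene Cysltr1 measured 156 and 143 in M354 and 68.1 and 88.1 in WT Tregs, against 678 and 649.8 in M354-transduced and 912 and 880.1 in WT-transduced cells (interaction 1.38, adjusted p = 0.00141). The semaphorin gene Sema6d measured 123 and 152 in M354 and 53.1 and 54.7 in WT Tregs and 44.5 to 51.6 in the 4 transduced arrays, and it did not pass the filter without either M354 Treg array (interaction 1.31, adjusted p = 0.00173). The phosphatase gene Ptpn13 had 1.10 and the growth factor binding protein gene Igfbp7 1.21 (adjusted p = 0.00365 and 0.00614). Penk, the opioid peptide precursor gene, rose in Tregs to 4428 and 5122 with M354, against 2017 and 1447 with WT, and its interaction of 1.04 was not called (adjusted p = 0.0892). All genes of this section, Tgm2, Pgm1 and Gnaq included, were named after their values were seen.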
